A study of Mus musculus with 12 samples.

Results

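The genes of the transforming growth factor beta (TGF-beta) pathway analyzed here are its 3 ligands, Tgfb1, Tgfb2 and Tgfb3, the receptors Tgfbr1, Tgfbr2 and Tgfbr3, and the intracellular proteins Smad2, Smad3, Smad4 and Smad7. They were chosen by symbol, with no threshold on their values but with earlier results of these data known, and make up 10 of the 56860 named genes in the table of counts. All 10 were among the 16600 genes with enough counts to be tested. RNA was sequenced from primary oligodendrocytes (OLs, the cells that form myelin in the central nervous system) of C57BL/6J mice, in 6 libraries treated with siEgr2, an siRNA against the transcription factor Egr2, and 6 libraries treated with a scrambled siRNA (siNC). Both groups consisted of differentiated OLs, collected 48 h after treatment. The cells came from newborn mice and were selected for the surface antigen O4, and the labels give the tissue as medial prefrontal cortex, whereas the methods of the study name the cortex. The reagent is called an siRNA in one place of the methods and a plasmid for interference in another. No source says whether the libraries of a group came from separate cultures, so the p-values measure only the spread between these libraries.

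TGF-beta ligands are secreted bound to a latency peptide, which is tethered to the matrix by latent binding proteins and released by integrins and proteases. The active ligand brings together the receptors Tgfbr2 and Tgfbr1, and Tgfbr1 then phosphorylates Smad2 and Smad3, which enter the nucleus with Smad4 to control target genes. Tgfbr3, also called betaglycan, presents ligands and above all Tgfb2 to the other receptors, while Smad7 is induced by the pathway and inhibits it. In the brain, TGF-beta acts on oligodendrocyte precursors, astrocytes and microglia, and it is known for promoting the exit of precursors from the cell cycle.

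Total counts lay between 28682946 and 39383014 in siNC and between 8034251 and 16683677 in siEgr2, so every siEgr2 library was shallower than every siNC library. The ribosomal RNA gene Rn18s-rs5 took 0.142% to 1.05% of the counts in siNC and 10.5% to 16.5% in siEgr2. Normalised counts (CPM, counts scaled to a common library size) were therefore put on the TMM scale, a scaling that sets most genes equal between libraries. Depth and the Rn18s-rs5 share separated the groups completely, and scaling may not remove every effect of this. Library make-up and siEgr2 treatment thus cannot be told apart in any comparison between the groups. Egr2, the targeted gene, had 3.89, 5.19 and 7.06 CPM (lowest, median and highest) in siNC and 2.22, 3.93 and 4.86 CPM in siEgr2. The ranges overlapped, and the log2 fold change of -0.51 ± 0.21 (SE) did not pass the test (adjusted p = 0.0981, edgeR's quasi-likelihood test). The labels of the groups are therefore used as given, and the level of the targeted gene does not by itself separate them.

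Egr2 belongs to the zinc finger factors that bind the motif GCGNGGGCG, so the promoters of the genes were searched for it on both strands. RefSeq windows (GRCm38.p6) from 250 bases before to 50 bases after the start of transcription were held for Tgfb1, Tgfb2, Tgfbr1, Tgfbr2 and Smad3. Those of Tgfb1 and Smad3 are shown because both genes were called lower in siEgr2, and that of Tgfbr1 because it holds the motif and the gene was not called. Capitals mark the motif, and each sequence runs 5′ to 3′ on the strand of the gene. The Tgfb1 window lies at chr7:25686752-25687051 on the plus strand, the Smad3 window at chr9:63757945-63758244 on the minus strand, and the Tgfbr1 window at chr4:47352972-47353271 on the plus strand.
Tgfb1: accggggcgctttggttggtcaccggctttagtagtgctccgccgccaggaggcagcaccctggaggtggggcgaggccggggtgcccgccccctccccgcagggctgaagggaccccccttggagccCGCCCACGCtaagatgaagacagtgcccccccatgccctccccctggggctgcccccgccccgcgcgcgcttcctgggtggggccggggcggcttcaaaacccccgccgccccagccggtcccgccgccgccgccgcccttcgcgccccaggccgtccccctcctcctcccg
Smad3: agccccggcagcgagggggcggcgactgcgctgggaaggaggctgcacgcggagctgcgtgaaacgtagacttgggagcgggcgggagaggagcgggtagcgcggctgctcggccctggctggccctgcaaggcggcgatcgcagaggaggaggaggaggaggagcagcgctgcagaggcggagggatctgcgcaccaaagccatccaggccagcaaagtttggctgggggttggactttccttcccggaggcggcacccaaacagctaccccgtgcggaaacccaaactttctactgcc
Tgfbr1: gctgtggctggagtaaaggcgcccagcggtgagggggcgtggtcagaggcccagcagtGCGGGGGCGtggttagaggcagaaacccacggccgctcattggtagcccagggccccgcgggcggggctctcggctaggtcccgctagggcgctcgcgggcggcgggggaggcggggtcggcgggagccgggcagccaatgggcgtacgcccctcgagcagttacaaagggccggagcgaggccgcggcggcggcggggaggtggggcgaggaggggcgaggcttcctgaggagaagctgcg
In the Tgfb1 window the motif starts at position -122 from the start site and reads on the opposite strand. In the Tgfbr1 window it starts at position -192 and reads on the strand of the gene. No match was found in the windows of Smad3, Tgfb2 and Tgfbr2, nor in a second window of Tgfbr1. Of all 32851 windows, 1824 (5.55%) held the motif, as did 1695 (6.27%) of the 27025 genes with a window. A match is a string of letters and not a binding site, and no binding was measured here.

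A gene was called when its adjusted p was under 0.05 and its log2 fold change was beyond 0.5 in either direction. Of the 10 genes, 3 were called lower in siEgr2 (Tgfb1, Tgfb3 and Smad3), against 5.08% of all genes tested, and 0 were called higher, against 2.63%. With the adjusted p alone, Tgfb2 and Tgfbr2 brought the lower genes to 5, against 11.3% of all genes, and Smad4 was the 1 higher gene, against 8.57%. At an unadjusted p under 0.05, edgeR gave 6 lower genes, against 16.9% of all genes, and 1 higher gene, against 15.1%, and DESeq2 and limma-voom also called 0 higher. The libraries of the groups did not overlap for 3 genes, Tgfb2, Tgfbr2 and Smad3, all lower in siEgr2, against 7.00% of all genes, and for 0 genes in the higher direction, against 4.15%. The median log2 fold change of the 10 genes was -0.37, and that of all genes was 0.0046. Since these are bulk samples, fewer cells of a type and less RNA per cell cannot be told apart in any of these values.

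**Figure D1:**
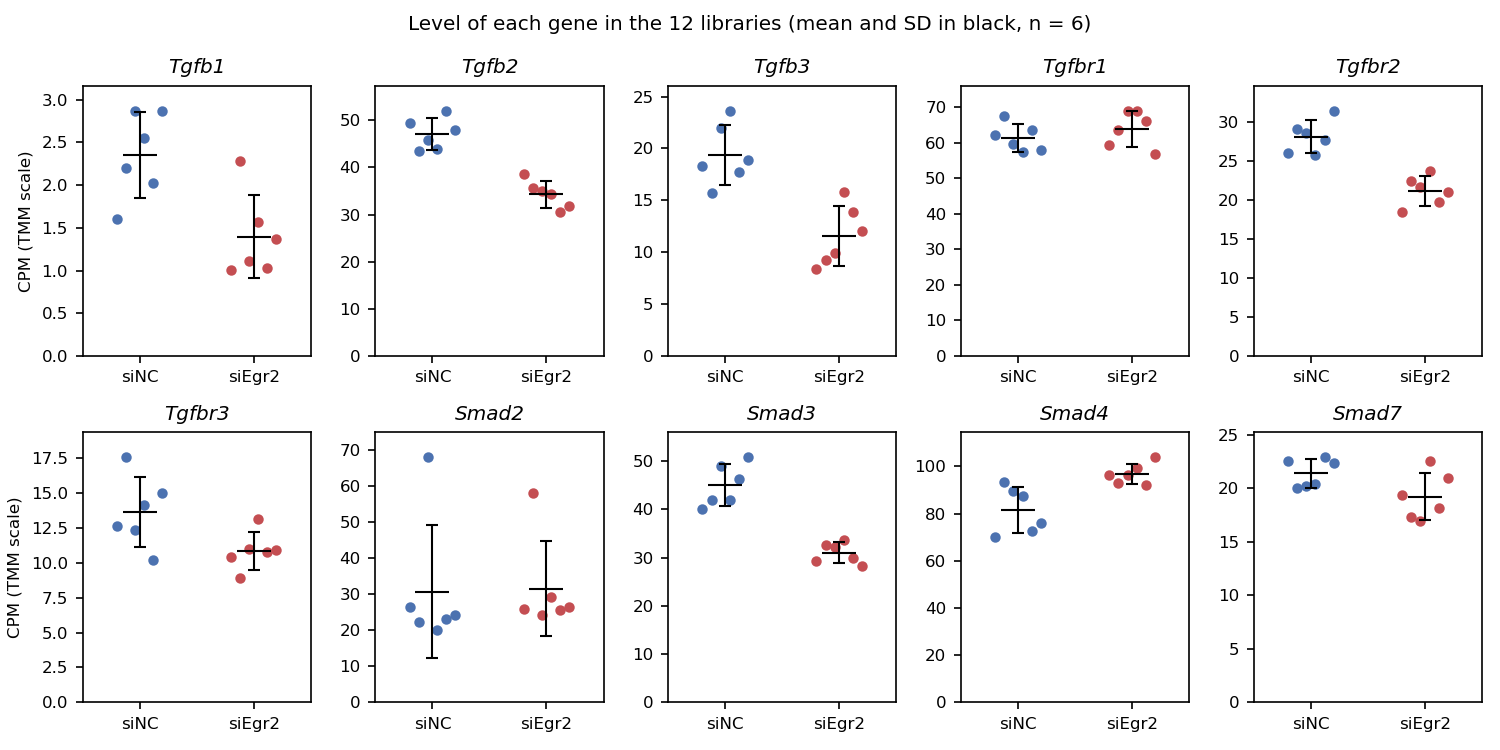
Level of each of the 10 genes in CPM on the TMM scale (y axis, starting at 0) in the 6 siNC and 6 siEgr2 libraries (x axis). Points are libraries and black bars the mean and SD. The groups separate for Tgfb2, Tgfbr2 and Smad3, and for Smad2 1 library of each group stands far above the others, at 67.9 and 58.0 CPM.

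**Figure D2:**
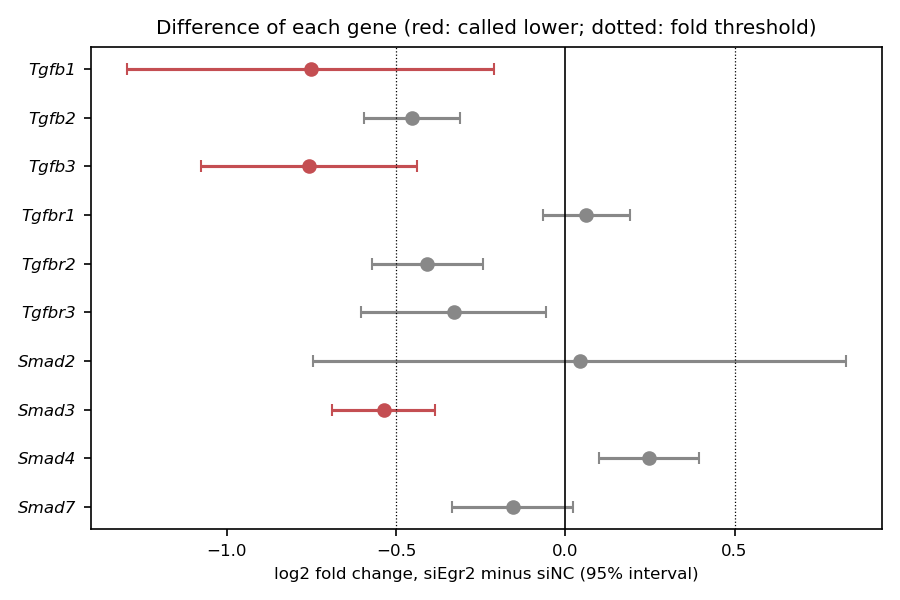
The log2 fold change of each gene, siEgr2 minus siNC (x axis), with its 95% confidence interval. Tgfb1, Tgfb3 and Smad3, in red, were called lower, and the dotted lines mark the fold threshold of 0.5. The widest interval is that of Smad2, from -0.74 to 0.83.

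Among the ligands, all 3 were lower in siEgr2, at 72.9% of the siNC mean for Tgfb2, 59.5% for Tgfb3 and 59.2% for Tgfb1. Tgfb2, the ligand that depends most on betaglycan, had 43.5, 46.9 and 52.1 CPM (lowest, median and highest) in siNC and 30.5, 34.7 and 38.6 CPM in siEgr2. Every siEgr2 library lay below every siNC library, on 238 to 574 counts against 1423 to 2001. Its log2 fold change of -0.45 ± 0.067 (SE, adjusted p = 0.000148) passed the test but not the fold threshold.

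Tgfb3, a ligand best known for its roles in palate and lung development, had 15.7, 18.6 and 23.7 CPM in siNC and 8.34, 11.02 and 15.8 CPM in siEgr2. The groups overlapped only in that siEgr2 replicate 4, at 15.8 CPM, lay just above siNC replicate 2, at 15.7 CPM. For Tgfb3 the log2 fold change was -0.76 ± 0.15 (SE, adjusted p = 0.00173, 95% confidence interval -1.08 to -0.44). At these thresholds the call was made under each of 23 alternative settings of scaling, test, filter and libraries, with log2 fold changes from -0.94 to -0.66, and at a log2 fold threshold of 1 it was not made. Tgfb3 lies on chromosome 12 from 86056745 to 86079041 and overlaps the protein-coding gene Ttll5 on the opposite strand. Whether the counting used strand is not given in the sources used here, so reads of the 2 genes in the shared stretch may not have been told apart.

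Tgfb1, which microglia are known to make in the brain, was the scarcest of the 10 genes, with 1.60, 2.37 and 2.87 CPM in siNC and 1.01, 1.24 and 2.28 CPM in siEgr2. These levels rest on 55 to 120 counts a library in siNC and on 8 to 28 counts in siEgr2. The groups overlapped, since siEgr2 replicate 2 had 2.28 CPM and siNC replicate 1 had 1.60 CPM. The log2 fold change was -0.75 ± 0.26 (SE), and the adjusted p of 0.0486 lay close to the threshold. The call was made in 7 of 22 alternative settings, with an adjusted p between 0.00853 and 0.182, and it was lost when any of 10 of the 12 libraries was left out (the exceptions were siNC replicate 1 and siEgr2 replicate 2). The difference itself remained negative in all 22, from -0.95 to -0.65.

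The shares of the 3 ligands in their summed level per kb of exon length overlapped between the groups and were not tested. Tgfb2 held 56.9% ± 4.42 (SD, n = 6) of the sum in siNC and 61.9% ± 6.83 in siEgr2. Tgfb3 held 39.9% ± 4.13 and 35.2% ± 7.04, and Tgfb1 held 3.26% ± 0.655 and 2.88% ± 1.02. In both groups Tgfb2 was thus the leading ligand by mRNA and Tgfb1 a minor one.

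Of the receptors, the ligand-binding Tgfbr2 was lower in siEgr2, while the signalling receptor Tgfbr1 was not detectably different. Tgfbr2 had 25.8, 28.1 and 31.5 CPM in siNC and 18.5, 21.4 and 23.8 CPM in siEgr2, with no overlap between the groups. Its log2 fold change was -0.41 ± 0.077 (SE, adjusted p = 0.00121), under the fold threshold. It passed the test under each of 23 alternative settings, from -0.59 to -0.37.

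Tgfbr1, the kinase that phosphorylates Smad2 and Smad3, had 57.3, 60.8 and 67.6 CPM in siNC and 56.8, 64.9 and 69.1 CPM in siEgr2. The groups overlapped over most of their range. The log2 fold change was 0.06 ± 0.061 (SE, adjusted p = 0.530), and its 95% confidence interval ran from -0.07 to 0.19, which does not reach the fold threshold on either side. With scaling by library size only, its sign turned to -0.12.

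Tgfbr3, the betaglycan co-receptor, had 10.2, 13.4 and 17.6 CPM in siNC and 8.87, 10.8 and 13.2 CPM in siEgr2. The groups overlapped, and the log2 fold change of -0.33 ± 0.13 (SE) did not pass the test (adjusted p = 0.0859). Its 95% confidence interval ran from -0.60 to -0.057. The gene models Gm43422, Gm43423 and Gm42900 overlap Tgfbr3 on its own strand, and Gm29491 and Gm26169 overlap Tgfb2 on the opposite strand. How reads shared with them were assigned is not given in the sources used here.

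Among the Smads, Smad3 was lower and Smad4 was slightly higher in siEgr2. Smad3, which binds DNA and is activated by the receptor, had 40.1, 44.2 and 50.8 CPM in siNC and 28.3, 31.1 and 33.7 CPM in siEgr2. No siEgr2 library reached the lowest siNC library. For Smad3 the log2 fold change was -0.54 ± 0.072 (SE, adjusted p = 5.49e-05), just past the fold threshold. It was called in 21 of 23 alternative settings and passed the test in all 23. Without siNC replicate 6, the deepest library, it was -0.50, and after thinning every library to the smallest total it was -0.49, both inside the threshold.

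Smad4, the partner shared by the TGF-beta and BMP branches, had 70.0, 81.8 and 93.4 CPM in siNC and 91.9, 96.4 and 104 CPM in siEgr2. In siNC, replicates 1, 5 and 6 had 70.0, 72.6 and 75.9 CPM, and replicates 2, 3 and 4 had 93.4, 89.8 and 87.7 CPM, whereas the siEgr2 libraries lay close together. The groups overlapped only through siNC replicate 2. The log2 fold change was 0.25 ± 0.070 (SE, adjusted p = 0.0194), under the fold threshold, and it passed the test in 22 of 23 alternative settings. The exception was scaling by library size only, which gave 0.063.

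Smad2, the other receptor-activated Smad, had 20.1, 23.6 and 67.9 CPM in siNC and 24.1, 26.2 and 58.0 CPM in siEgr2. A single library in each group stood far above the rest, siNC replicate 3 at 67.9 CPM (the others 20.1 to 26.5) and siEgr2 replicate 2 at 58.0 CPM (the others 24.1 to 29.1). Among the 9066 genes whose mean log2 CPM was 4 or more, Smad2 was the 1 gene for which both of these libraries exceeded every other library by more than 1.5-fold, with a ratio of 1.99, and the next gene had a ratio of 1.07. Why Smad2 reads were more numerous there was not tested. With all libraries the log2 fold change was 0.04 ± 0.36 (SE, adjusted p = 0.954), so that a difference of the size seen for Smad3 could not have been detected. It became 0.44 without siNC replicate 3, -0.23 without siEgr2 replicate 2, and 0.18 (adjusted p = 0.215) without both.

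Smad7, the inhibitory Smad and a direct target of the pathway, had 20.03, 21.4 and 22.9 CPM in siNC and 16.9, 18.8 and 22.6 CPM in siEgr2. The groups overlapped, and the log2 fold change of -0.16 ± 0.084 (SE) did not pass the test (adjusted p = 0.222, 95% confidence interval -0.33 to 0.023). Smad3 made up 71.4% ± 9.18 (SD, n = 6) of the summed level of Smad2 and Smad3 per kb in siNC and 62.0% ± 7.44 in siEgr2, a share that moves with the Smad2 libraries named above.

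**Figure D3:**
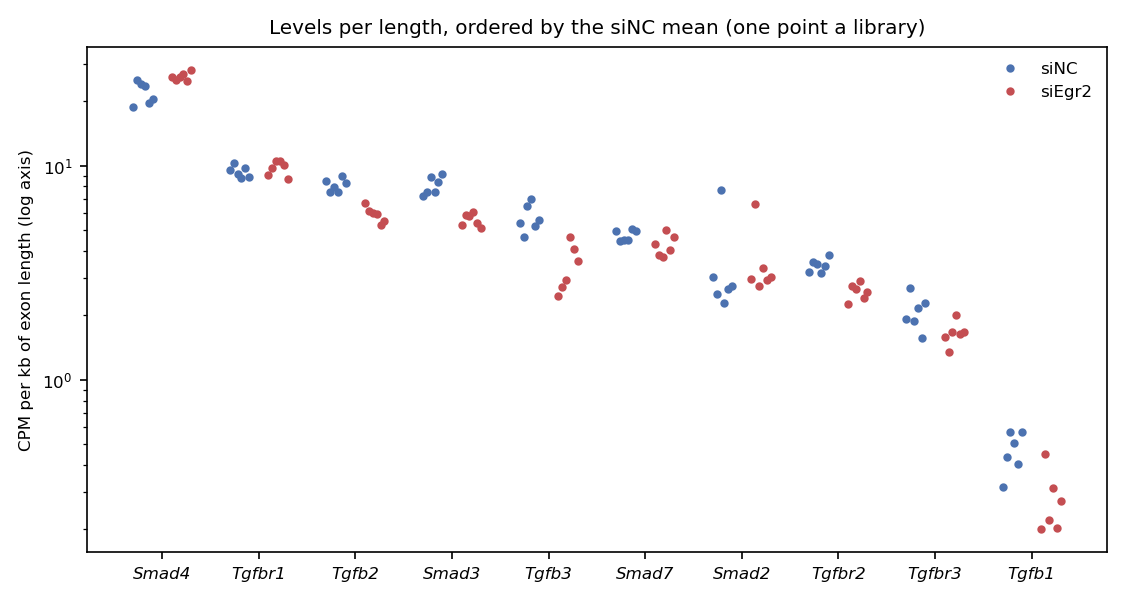
Level of each gene in CPM per kb of exon length (y axis, log scale), in the order of the siNC mean (x axis), with 1 point for each of the 6 siNC and 6 siEgr2 libraries. Smad4 lies above every other gene in both groups and Tgfb1 below every other gene.

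The levels were compared between genes per kb of exon length, taken from the GENCODE M21 annotation. In siNC, Smad4 was highest with a mean of 22.0 CPM per kb, and its libraries did not overlap those of Tgfbr1, at 9.38. Tgfbr1, Tgfb2 (8.13) and Smad3 (8.13) followed each other with overlapping ranges, and all lay above Tgfb3 at 5.73. Tgfb3, Smad7 (4.74), Smad2 (3.49) and Tgfbr2 (3.44) overlapped each with the next. Tgfbr3 (2.08) and Tgfb1 (0.467) closed the order, each without overlap with the gene above it.

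In siEgr2 the ends of this order were the same, with Smad4 at 26.1 and Tgfb1 at 0.276 CPM per kb. Tgfbr1, at 9.79 CPM per kb, no longer overlapped Tgfb2, at 5.93. Tgfb3, at 3.41 CPM per kb, stood after Smad7 (4.25) and Smad2 (3.59) in place of before them, with overlapping ranges. The place of Smad2 rests on its outlying library in each group, at 7.74 CPM per kb in siNC and 6.60 in siEgr2. Its other libraries lay between 2.29 and 3.02 CPM per kb in siNC, below every library of Tgfbr2, and between 2.74 and 3.31 in siEgr2, below the mean of Tgfb3. The exon length covers all transcripts of a gene, so a gene whose shorter transcripts are the ones used is set too low on this scale.

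**Figure D4:**
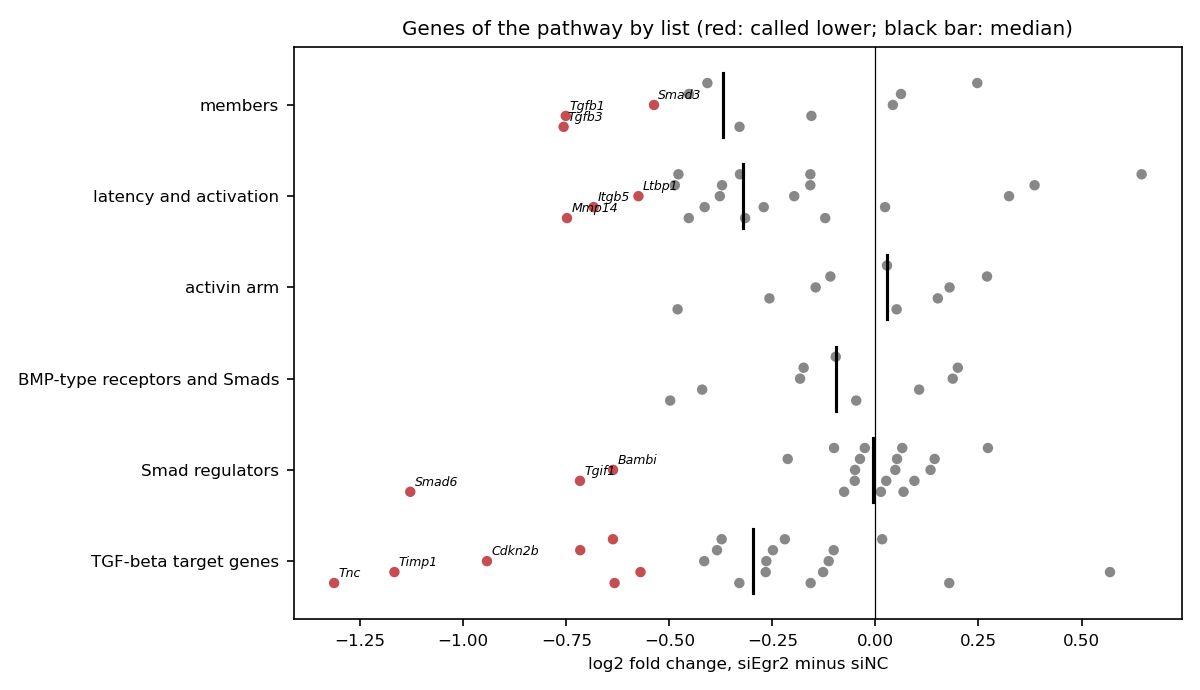
Log2 fold change, siEgr2 minus siNC (x axis), of the tested genes in the 10-gene set (members) and in 5 lists of other genes of the pathway (y axis). Red points were called lower, the 3 with the largest fall in each list are named, and black bars are medians. The target genes hold 7 of the red points outside the 10-gene set, and no gene was called higher.

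Beyond the 10 genes, 5 lists of other genes of the pathway were counted, 84 genes of which 80 were tested. Of these, 13 were called lower in siEgr2, against 5.08% of all genes tested, and 0 higher, against 2.63%, with a median log2 fold change of -0.16. At an unadjusted p under 0.05, 38 were lower and 3 higher in edgeR, against 16.9% and 15.1% of all genes. DESeq2 and limma-voom each called 1 gene higher, the integrin subunit Itgav, in the list of latency and activation.

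The list of TGF-beta target genes, which many signals besides TGF-beta also regulate, held 7 called lower of 22 tested, against 5.08% of all genes, and 0 called higher, against 2.63%, and its median was -0.30. In edgeR, 13 of its genes were lower and 0 higher at an unadjusted p under 0.05, against 16.9% and 15.1% of all genes, and DESeq2 and limma-voom likewise called 7 lower and 0 higher. Tnc, which encodes the matrix protein tenascin C, fell from 185 ± 40.8 (SD, n = 6) to 74.5 ± 10.8 CPM, a log2 fold change of -1.31 ± 0.15 (SE, adjusted p = 9.67e-05). Timp1, an inhibitor of metalloproteinases, fell from 30.0 ± 3.69 to 13.3 ± 3.05 CPM. Cdkn2b, the cell cycle inhibitor through which TGF-beta arrests many cells, fell from 19.8 ± 2.24 to 10.3 ± 1.92 CPM, and the groups overlapped for none of these 3 genes. Cdkn1a, another cell cycle inhibitor in the list, had 212 ± 30.6 and 214 ± 14.6 CPM (adjusted p = 0.918), and Tgfbi, named for its induction by TGF-beta, had 33.7 ± 3.87 and 38.2 ± 7.63 CPM (adjusted p = 0.340).

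Of the genes of latency and activation, 20 of 22 were tested, 3 were called lower and 0 higher, and the median was -0.32. Of all genes tested, 5.08% were called lower and 2.63% higher. With the adjusted p alone, 11 were lower, against 11.3% of all genes, and 1 was higher, against 8.57%. Mmp14, a membrane metalloproteinase, fell from 40.5 ± 7.37 (SD, n = 6) to 24.2 ± 4.71 CPM. Itgb5, an integrin subunit that pairs with Itgav to activate the latent ligand, fell from 69.3 ± 7.58 to 43.1 ± 4.56 CPM. Ltbp1, a latent TGF-beta binding protein, fell from 45.3 ± 8.30 to 30.4 ± 5.64 CPM, with overlap between the groups. Its relative Ltbp4 was the gene that was higher, at 33.7 ± 2.21 and 42.3 ± 2.19 CPM (log2 fold change 0.32 ± 0.059, SE, adjusted p = 0.000950).

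Itgav itself had 120, 131, 140 and 133 CPM in siNC replicates 1, 2, 3 and 6, and 249 and 267 CPM in siNC replicates 4 and 5. The siEgr2 libraries lay between 250 and 293 CPM. The siNC libraries thus fell at 2 levels, and the log2 fold change of 0.65 ± 0.21 (SE, adjusted p = 0.0597) was called by DESeq2 and limma-voom but not by edgeR. How the reads of this gene were assigned was not tested.

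Of the Smad regulators, all 20 were tested, 3 were called lower (against 5.08% of all genes) and 0 higher (against 2.63%), and the median was -0.0063. With the adjusted p alone, 4 of the 20 were lower and 0 higher, against 11.3% and 8.57% of all genes. Smad6, the inhibitory Smad that acts mainly on the BMP branch, had 4.35 ± 0.721 (SD, n = 6) CPM in siNC and 1.97 ± 1.22 CPM in siEgr2 (log2 fold change -1.13 ± 0.29, SE, adjusted p = 0.0104). The groups overlapped, since siEgr2 replicate 4 had 4.34 CPM, within the siNC range of 3.37 to 5.36 CPM, while the other siEgr2 libraries had 0.977 to 1.91 CPM. Smad6 was named after its values were seen, since its mean level lay below the limit set for named genes. Tgif1, a nuclear repressor of Smad2 and Smad3, fell from 9.84 ± 1.25 to 5.99 ± 1.25 CPM without overlap. Bambi, a decoy receptor without a kinase domain, fell from 7.75 ± 1.04 to 4.98 ± 1.23 CPM, with overlap between the groups. The ubiquitin ligase genes Smurf1 and Smurf2 had 136 ± 4.83 and 78.7 ± 2.30 CPM in siNC and 131 ± 6.07 and 76.8 ± 4.67 CPM in siEgr2, and neither passed the test (adjusted p = 0.442 and 0.641).

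In the activin arm, whose receptors also signal through Smad2 and Smad3, 9 of 11 genes were tested and 0 were called in either direction by edgeR, DESeq2 or limma-voom. In edgeR, 2 were lower and 0 higher at an unadjusted p under 0.05, a share of lower genes near the 16.9% of all genes, and the median was 0.028. Inhbb, an activin subunit, was lower with the adjusted p alone (log2 fold change -0.48 ± 0.12, SE, adjusted p = 0.00884). Of the 9 BMP-type receptors and Smads, 0 were called by any of the 3 tools, 4 were lower and 0 higher at an unadjusted p under 0.05, against 16.9% and 15.1% of all genes, and the median was -0.096. Smad9 and Bmpr1a were lower with the adjusted p alone, by log2 fold changes of -0.42 ± 0.11 and -0.17 ± 0.045 (SE, adjusted p = 0.0113 and 0.0108).

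**Figure D5:**
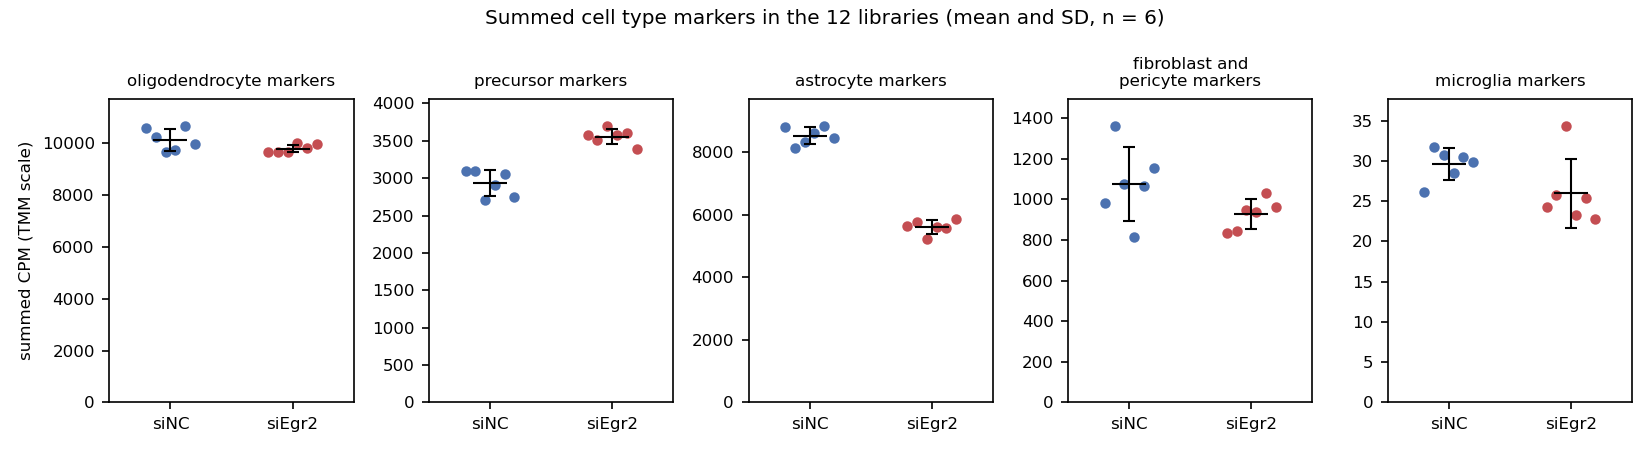
Summed level of the markers of 5 cell types in CPM on the TMM scale (y axis, starting at 0) in the 6 siNC and 6 siEgr2 libraries (x axis), with points for libraries and black bars for the mean and SD. The astrocyte sums lie between 8121 and 8816 in siNC and between 5209 and 5871 in siEgr2, without overlap.

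The labelled cell type was checked against marker lists, and markers of other cells were present. The 10 oligodendrocyte markers summed to between 9664 and 10656 CPM in siNC and between 9675 and 10017 CPM in siEgr2, and 0 of them were called by edgeR, DESeq2 or limma-voom (5 lower and 3 higher at an unadjusted p under 0.05, against 16.9% and 15.1% of all genes). The 9 astrocyte markers summed to 8519 ± 277 (SD, n = 6) CPM in siNC and to 5612 ± 226 CPM in siEgr2, which is 65.9% of the siNC level. The sums of different lists rest on different genes and are not scaled by length, so they do not compare the amounts of the cell types. Of the 9, 5 were called lower and 0 higher, against 5.08% and 2.63% of all genes, which are also the shares to set beside the marker counts that follow. Among the 5 was Gfap, the astrocyte filament protein, at 4777 and 3242 CPM, the largest single part of the sum. S100b, also in the list, was not detectably different in edgeR (119 and 118 CPM, adjusted p = 0.849). The astrocyte sum therefore moved in the same direction as Tgfb2, Tgfb3, Tgfbr2 and Smad3, which astrocytes are also known to express, and as the called target genes and genes of latency and activation. Its part in those differences was not tested. Of the 6 markers of precursors, 2 were called higher (0 with scaling by library size only, 3 with DESeq2 and with limma-voom), and their sum was 2936 ± 177 CPM in siNC and 3558 ± 100 CPM in siEgr2. Lhfpl3, 1 of the 6, fell at separate levels within siNC, 191 to 197 CPM in replicates 3, 4 and 6 and 361 to 386 CPM in replicates 1, 2 and 5, and without it the sums were 2653 ± 92.2 and 3138 ± 80.4 CPM.

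The markers of fibroblasts and pericytes, which are rich in TGF-beta targets, summed to between 814 and 1359 CPM in siNC and between 837 and 1031 CPM in siEgr2. Of the 7 tested, 2 were called lower (Pdgfrb and Rgs5) and 0 higher, and the part of these cells in the target genes was not tested. Col1a1, Col1a2 and Col3a1 stand in both this list and the list of target genes, and these 3 were not called. With means of 336, 308 and 286 CPM in siNC, they made up most of the sum, whose siNC mean was 1075 CPM. The 12 microglia markers, the cells that could bring Tgfb1, summed to between 26.1 and 31.8 CPM in siNC and between 22.8 and 34.3 CPM in siEgr2. Only 5 of the 12 had enough counts to be tested, 0 were called or passed an unadjusted p of 0.05 in edgeR, and the defining microglial genes Aif1 and Itgam had no count in any library. Of the 7 neuron markers tested, 1 was called lower, and of the 3 endothelial markers tested, 1 was called lower.

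For the 3 called genes and for Smad4, the most abundant of the 10, the genes with the most similar pattern were sought by Pearson's r of log2(CPM + 0.5) over the 12 libraries, after the group means were removed. For Smad3 these were Fam234a (r = 0.93), Grip1 (0.89) and Mcat (0.87), out of 12399 genes compared. For Tgfb3 they were Zbed4 (0.91), Zfc3h1 (0.90) and Ptma (0.90), for Tgfb1 Smg5 (0.93), Chaf1a (0.88) and Eef1d (0.88), and for Smad4 Btbd8 (0.92), Snx25 (0.91) and Bsg (0.88). Such values are the highest among all genes compared, over few libraries, and describe these libraries. Between the 10 genes themselves, the highest r was that of Tgfbr2 with Smad3 (0.74) and the lowest that of Tgfb2 with Smad4 (-0.57).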

How the data were processed

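Sequencing of RNA from 12 libraries, 6 siNC and 6 siEgr2, was analyzed, grouped by the labels. The authors extracted total RNA with TRIzol, prepared Illumina libraries and deposited whole-number read counts for each gene symbol, which had not been normalized. The submitters' processing notes name the genome build mm10. The aligner, the counter, the annotation and the use of strand are not given in the sources used here. A blank entry (1) was left out.

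After filterByExpr and TMM scaling, the groups were compared by edgeR 4.0.16 (glmQLFit, robust, and glmQLFTest) in R 4.3.3, with all 12 libraries and no covariate. P-values were adjusted by Benjamini and Hochberg over 16600 genes. The procedure was also run on simulated counts with the same spread for all genes, and its outcome is not reported here. Calls required an adjusted p below 0.05 with a log2 fold change beyond 0.5 in size, as in the study, whose methods name no test. CPM were computed on the TMM scale and divided by the exon length of GENCODE M21 (GRCm38) for levels between genes. No library was a copy of another (chi-square per gene of 7.56 to 39.8 over 30 pairs within groups). Total counts of 8034251 to 39383014 set the counting precision, and Tgfb1 had the fewest counts of the 10 genes.

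The 10 genes were taken by symbol, and they, the lists and the markers were chosen with earlier results of these data known. Named were the 10 genes, Egr2, the called genes of each list (at most 4, by size of change, among genes whose mean log2 CPM was 2 or more), at most 4 more a list for their role, and the 3 genes most like each called gene and Smad4. Some genes that meet this rule are not reported here. The alternatives were RLE, upper-quartile and library-size scaling, DESeq2 1.42.0, limma-voom (limma 3.58.1), 2 other count filters, a block on the replicate number, each library left out in turn, thinning to the smallest total, leaving out structural RNA genes, and other fold thresholds. Leaving out siNC replicate 3 with siEgr2 replicate 2, counting the pathway lists under every alternative, and summing the precursor markers without Lhfpl3 were added after seeing the data. Figures were drawn with matplotlib.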

Additional observations from a re-analysis of the deposited data

Results flagged for a closer look

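Of 22 groups of 6 values examined (the 10 genes and the total counts, each in both groups), 3 held a value that stands apart from the others by Dixon's criterion, where chance alone gives about 1 in 20, or 1.1 of 22. Smad2 was at 67.9 CPM in siNC replicate 3, next to 26.5 CPM in the library below it. Smad2 was also at 58.0 CPM in siEgr2 replicate 2, next to 29.1 CPM. The total of siNC replicate 6 was 39383014 counts, next to 32460116.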

How the results depend on the processing

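The count of genes called lower, 3 of 10, kept within 1.5-fold with RLE and upper-quartile scaling, DESeq2, limma-voom and other filters on low counts. It was 6 with scaling by library size only (with Tgfb2, Tgfbr2 and Tgfbr3), under which 10.5% of all genes were called lower against 5.08%, 1 after thinning to the smallest total, 5 without a fold threshold and 0 at a log2 fold change over 1. With 1 library left out it ranged from 1 to 3, and it was 1 (Tgfb3) without siNC replicate 6. The count called higher was 0 in all of these except 1, Smad4, without a fold threshold. Scaling by library size only moved the median of all genes from 0.0046 to -0.18 and the share of lower among called genes from 65.9% to 88.0%, so the values of single genes under it are shifted by that amount.

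The other genes of the pathway called lower, 13, became 28 with library size only (over all genes, 844 became 1737), 30 without a fold threshold and 3 at a log2 fold change over 1, and with 1 library left out they ranged from 13 to 17. Those called higher, 0, became 1 with DESeq2, 1 with limma-voom and 1 without a fold threshold, and ranged from 0 to 1 with 1 library left out (Itgav, without siNC replicate 4 or 5). With library size only, the genes called lower were 11 of latency and activation, 1 of the activin arm, 2 BMP-type receptors and Smads, 3 Smad regulators and 11 target genes. The cause was not tested.

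With the replicate number as a block, 2 genes were called lower (Tgfb3 and Smad3), Tgfb1 had a log2 fold change of -0.77 (adjusted p = 0.0710), and 1124 genes were called in all, against 1281. The correlation of same-numbered libraries was between -0.039 and 0.042, and 4 of 12 libraries correlated best with their own number. A pairing of the libraries by number was thus not shown, and it is not excluded. Tgfb1 could not be fitted with at least 10 counts in every library. Few counts limit Tgfb1, and the outlying libraries limit Smad2.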
